A study of Mus musculus with 12 samples.

Results

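The genotype by clozapine interaction is the effect of clozapine in mice labelled as Hdac2 knockouts minus its effect in wild-type mice. It was tested for each expressed gene in 1 fit of all 12 libraries, which are all the libraries of the study. The mice were C57BL/6 males, the tissue was frontal cortex, and RNA sequencing libraries came in 4 groups of 3. The first pair of groups was labelled Wild-type and given either vehicle or clozapine at 10 mg/kg. The other pair was labelled HDAC2(loxP,loxP), CamKIIa-Cre(+,-), and was given the same 2 treatments. In that genotype the Cre recombinase is driven by the Camk2a promoter, which is active mainly in excitatory neurons of the forebrain, so other cell types keep the floxed gene intact. Wild-type controls are not labelled as carrying loxP sites or Cre, so the effects of those alleles cannot be told apart from loss of Hdac2. The series calls the treatment chronic, and ages and number of doses are not given in the sources used here. Libraries carry the numbers of their labels: 1, 3 and 4 for wild-type vehicle, 2, 3 and 5 for wild-type clozapine, 2, 4 and 5 for knockout vehicle and 3, 4 and 5 for knockout clozapine.

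Clozapine, an antipsychotic, acts on many receptors, among them those for serotonin, noradrenaline, acetylcholine, histamine and dopamine. HDAC2 removes acetyl groups from histones as the catalytic subunit of the CoREST, NuRD and Sin3 co-repressor complexes, and in neurons it restrains genes of synaptic plasticity. A positive interaction means that clozapine raised a transcript more, or lowered it less, in the labelled knockout than in wild type. It does not say which of the 4 groups moved, and the same positive value arises from a fall in wild type, a rise in the labelled knockout, or both. Each gene is therefore given with its level in every library, as counts scaled to library size (CPM, TMM scaling), before the interaction on the log2 scale.

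Total counts ran from 23408372 to 28069638 per library, and 17286 of 47069 genes had enough counts to be tested. Hdac2 (ENSMUSG00000019777.16, chromosome 10, 36974544 to 37001889, GRCm38) ranged over 63.4 to 75.7 CPM in the 6 wild-type and 70.5 to 76.6 CPM in the 6 labelled knockout libraries. Under vehicle the wild-type values were 75.7, 63.4 and 70.0, and those of the labelled knockout 75.4, 76.6 and 73.3. Under clozapine they were 75.5, 72.3 and 73.5 against 73.9, 70.5 and 71.2. Its level did not separate the genotypes, and its interaction was -0.15 ± 0.08 (SE, edgeR adjusted p = 0.47). Reads over the whole gene are counted, exons outside a deleted part included, and the tissue mixes cells with and without Cre, so a deletion of single exons is not checked by it. Genotypes are given as labelled, and each direction below depends on those labels. The labels name no batch. Wild-type vehicle 3 stood apart in Ttr, a transcript of the choroid plexus, with 53.3 CPM against 0.29 to 4.15 CPM in the other 11 libraries. Knockout vehicle 5 stood apart from knockout vehicle 2 and 4 in a group of genes on chromosome 12 described further on. Replicates are separate samples by their labels, which do not say that they are separate animals, and p-values then reflect only how far these samples spread.

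Hspa5, a chaperone gene of the endoplasmic reticulum (ER), was among the genes of smallest p in the interaction (edgeR unadjusted p = 5.6e-07). The called ER genes Pdia6, Pdia4, Serpinh1 and Manf had larger values, from 7.5e-05 for Pdia6 to 2.5e-04 for Manf. Many chaperone genes of the ER are known to share a promoter element. When unfolded proteins accumulate in the ER, ATF6 and XBP1 raise chaperones through the ER stress response element, a CCAAT box held 9 bases from a CCACG. The promoters of RefSeq (GRCm38.p6, 250 bases before to 50 after each start) were searched on both strands for CCAAT, 9 bases of any kind and CCACG, a motif picked with the interaction results known. It was found in 39 of 32851 promoters, or 0.119%. Among tested genes with a promoter entry, 22 of 12152 (0.181%) held it. Of the 12 ER chaperones described below, 10 have an entry, and 6 of those hold the element. Of the 113 genes called in the interaction, 81 have an entry and 2 hold it, Hspa5 and Pdia6. The windows of 30 bases are printed here for those 2 and for 4 chaperones that were not called, with CCAAT and CCACG in capitals, each 5′ to 3′ on the strand that reads CCAAT first.
Hspa5, chr2:34772020-34772049, plus strand: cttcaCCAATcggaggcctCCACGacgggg
Pdia6, chr12:17266486-17266515, plus strand: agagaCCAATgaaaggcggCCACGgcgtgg
Calr, chr8:84847070-84847099, plus strand: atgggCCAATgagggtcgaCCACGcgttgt
Creld2, chr15:88819514-88819543, minus strand: gtggaCCAATtgaggctcgCCACGagaagc
Dnajc3, chr14:118937822-118937851, plus strand: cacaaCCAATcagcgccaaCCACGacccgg
Canx, chr11:50325794-50325823, minus strand: attgaCCAATcaccacgctCCACGaagaat
Genes with the element covered a range of interactions: the log2 interaction was 0.59 for Hspa5, 0.41 for Pdia6, 0.25 for Calr, 0.45 for Creld2, 0.15 for Dnajc3 and -0.03 for Canx. The element is also in the promoters of Hsp90b1, the sixth of those chaperones, with 0.09 (edgeR adjusted p = 0.70), and Ero1lb, a disulfide oxidase of the ER, with 0.12 (0.85), whose windows are not printed. Pdia4, which was called, has no match in its window, and Manf has no entry. A match is a description of the letters and not evidence of binding.

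In the fit as a whole, 113 of 17286 genes were called at a BH adjusted p under 0.05 (0.654%), 91 with a positive interaction (0.526%) and 22 with a negative one (0.127%). At an unadjusted p under 0.05 there were 2345 genes, and the median log2 interaction of all genes was -0.01. The called genes mostly had mean changes of opposite sign in the 2 genotypes: 87 of the 113 had a lower mean with clozapine in wild type and a higher one in the labelled knockout, 21 the reverse, and 5 the same sign in both. Clozapine alone called 141 genes in wild type (0.816%) and 4 in the labelled knockout (0.0231%). At an unadjusted edgeR p under 0.05 the counts were 2004 and 2117, and the mean absolute log2 change was 0.149 and 0.145. The numbers called therefore do not show that clozapine changed fewer genes, or changed them less, in the labelled knockout. Labelled knockout against wild type called 1584 genes under vehicle (9.16%) and 345 under clozapine (2.0%). These contrasts share libraries with the interaction, so their values are set beside it and are no separate evidence.

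The sign of an interaction largely fixes which groups hold a gene's highest and lowest means, so these are given as description. Of the 91 positive genes, 70 had their highest mean in wild-type vehicle, 20 in knockout clozapine and 1 in knockout vehicle. Their lowest mean was in knockout vehicle for 54, in wild-type clozapine for 35 and in knockout clozapine for 2. Of all 17286 tested genes, 4423 had their highest mean in wild-type vehicle and 3834 in knockout clozapine, and 4719 their lowest in knockout vehicle. Over these 91 genes the median log2 interaction was 0.46 (range 0.30 to 2.03). The median change with clozapine was -0.29 in wild type and 0.17 in the labelled knockout. Labelled knockout minus wild type had a median of -0.33 under vehicle and 0.14 under clozapine. Of the 22 negative genes, 15 had their lowest mean in wild-type vehicle and 7 in knockout clozapine, and the highest was in knockout vehicle for 12 and wild-type clozapine for 10. Their median log2 interaction was -1.27 (range -4.51 to -0.36), with median changes of 0.57 in wild type and -0.42 in the labelled knockout. The wild-type vehicle and clozapine libraries did not overlap for 105 of the 113 (92.9%, against 15.6% of all tested genes), and the labelled knockout libraries did not overlap for 76 (67.3%, against 18.7%). Both shares come from the contrast that selected the genes and are given as description.

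**Figure D1:**
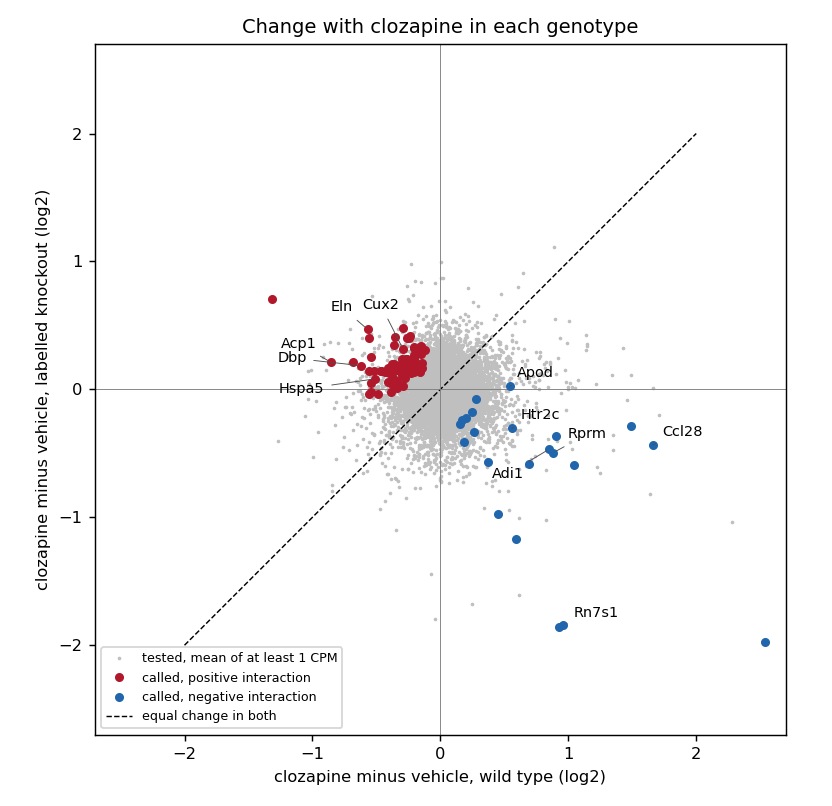
Each point is a gene, placed by the log2 change with clozapine in wild type (x axis) and in the labelled knockout (y axis), with red and blue points for the 91 genes called with a positive and the 22 with a negative interaction. Most red points lie up and left of the dashed line of equal change, in the corner of a negative change in wild type and a positive one in the labelled knockout. 2 genes, neither of them called, lie outside the axes.

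**Figure D2:**
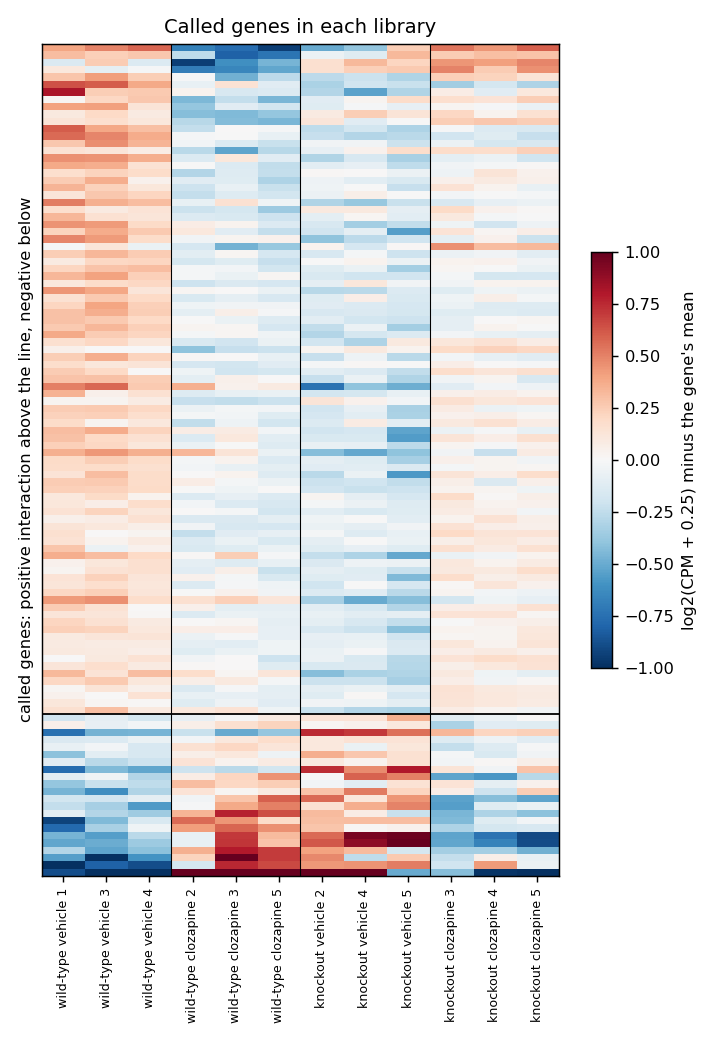
Rows are the 113 called genes, with positive interactions above the black line and negative ones below. Within each block they are ordered by the log2 change with clozapine in wild type. Columns are the 12 libraries, and colour is log2(CPM + 0.25) minus the gene's mean over the libraries. The 91 positive genes are mostly warm in wild-type vehicle and cool in wild-type clozapine and knockout vehicle, and the 22 negative genes show the reverse order.

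The number of calls rested on single libraries. Leaving out wild-type vehicle 3 gave 19 calls, wild-type vehicle 1 gave 54, and wild-type clozapine 5 gave 23. Leaving out knockout vehicle 2 gave 54, knockout vehicle 5 gave 40 and knockout vehicle 4 gave 181. Without knockout clozapine 3, 4 or 5 it was 21, 24 and 13. Leaving out any of the other 3 libraries left 84 to 115 calls. Of the 113 genes, 12 passed in all 12 such fits, 9 positive and 3 negative, and none changed sign in any of them. The positive ones were Dbp, Hspa5, Rtn4rl1, Eln, Cux2, Nr1d1, Pitpnm2, Asap2 and the pseudogene 3110053B16Rik, and the negative ones Rn7s1, Rn7s2 and the pseudogene Gm6472. The 91 positive genes had a median exonic length of 5480 bases, a median GC content of 55.4% and a median level of 103 CPM, and the 22 negative genes 3090 bases, 46.6% and 23.9 CPM. All tested genes had medians of 4000 bases, 49.8% and 15.9 CPM. A correction of each library for length and GC left 69 calls, 48 positive and 21 negative, so that the positive share was 69.6% in place of 80.5%, and 57 of the 69 were among the 113.

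The main ER chaperone fell with clozapine in wild type, was lower in the labelled knockout than in wild type under vehicle (edgeR adjusted p = 7.5e-07), and did not pass for clozapine in the labelled knockout. Hspa5 (BiP, ENSMUSG00000026864.13, chromosome 2, 34771970 to 34777547) is the main chaperone of the compartment and holds the stress sensors inactive. It stood at a CPM of 394, 374 and 345 in wild-type vehicle, 265, 265 and 253 in wild-type clozapine, 227, 218 and 220 in knockout vehicle, and 233, 244 and 226 in knockout clozapine. Every wild-type vehicle library was above all other libraries, and the labelled knockout libraries of the 2 treatments overlapped. The mean fell by 29.8% with clozapine in wild type and was 5.88% higher in the labelled knockout. Its interaction was 0.59 ± 0.08 (95% interval 0.43 to 0.75, edgeR adjusted p = 0.0019, n = 3 in each group). It passed without each library in turn, with a largest adjusted p of 0.012. In the labelled knockout the change with clozapine was 0.08 ± 0.05 (edgeR adjusted p = 0.58).

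Manf (ENSMUSG00000032575.16, chromosome 9, 106838312 to 106891979) encodes a secreted protein of the endoplasmic reticulum induced by stress that protects neurons. It stood at a CPM of 47.7, 46.0 and 38.2 in wild-type vehicle, 35.5, 35.1 and 33.5 in wild-type clozapine, 28.9, 28.9 and 31.8 in knockout vehicle, and 32.2, 34.0 and 33.7 in knockout clozapine. Its order over the groups was that of Hspa5, and the clozapine groups of the 2 genotypes overlapped. Its interaction was 0.49 ± 0.11 (edgeR adjusted p = 0.043), and it passed only in the fit without wild-type vehicle 4 among the 12, with an adjusted p of up to 0.13 without wild-type clozapine 5. The other 10 of the 12 ER chaperones did not pass. Sdf2l1, a partner of BiP, had 18.5, 17.3 and 16.1, then 13.4, 11.1 and 12.3, then 9.22, 9.0 and 8.86, and finally 10.6, 11.4 and 8.27 CPM in the same order of groups, with an interaction of 0.66 ± 0.15 (edgeR adjusted p = 0.065). Calr, a calcium-binding lectin chaperone, had an interaction of 0.25 (edgeR adjusted p = 0.092), Hyou1 0.32 (0.13), Dnajb11 0.28 (0.15) and Creld2 0.45 (0.17). Hsp90b1, an abundant chaperone of the same compartment, had 0.09 (edgeR adjusted p = 0.70), and Dnajb9, Cnpy2 and Canx had negative values. The chaperones numbered 2 called higher of 12, with 9 positive and a median log2 interaction of 0.26. Over all tested genes 0.526% were called higher, 48.5% were positive and the median was -0.01. Their summed level was 1700 to 1800 CPM in wild-type vehicle, 1480 to 1500 in wild-type clozapine, 1350 to 1420 in knockout vehicle and 1370 to 1390 in knockout clozapine.

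The same order held for 2 of 13 protein disulfide isomerases, enzymes that form and shuffle disulfide bonds in newly made proteins. Pdia6 (ENSMUSG00000020571.12, chromosome 12, 17266545 to 17284770), which also attenuates the stress sensors, stood at a CPM of 144, 151 and 134 in wild-type vehicle, 112, 109 and 116 in wild-type clozapine, 102, 99.5 and 100 in knockout vehicle, and 113, 101 and 102 in knockout clozapine. Wild-type vehicle lay above the rest with no overlap, and the labelled knockout groups overlapped. Its interaction was 0.41 ± 0.08 (edgeR adjusted p = 0.031). Pdia4 (ENSMUSG00000025823.9, chromosome 6, 47796141 to 47813430) stood at 46.4, 44.4 and 37.6, then 32.3, 33.7 and 34.0, then 24.9, 27.6 and 28.7, and finally 31.1, 34.0 and 28.5 CPM. Its interaction was 0.56 ± 0.12 (edgeR adjusted p = 0.039). Pdia6 passed in 3 and Pdia4 in 2 of the 12 fits without 1 library, and the adjusted p reached 0.084 without wild-type vehicle 3 for Pdia6 and 0.11 without knockout clozapine 4 for Pdia4. The list's median was 0.04, with 8 of 13 positive, since P4hb (0.09), Erp29 (-0.02) and Txndc5 (0.04) hardly differed from 0. Among all tested genes 0.654% were called and 48.5% were positive.

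None of the 18 sensors and transcription factors of ER stress was called, and their median log2 interaction was 0.01 with 9 positive. Creb3l2, a membrane-bound transcription factor, had 0.49 ± 0.13 (edgeR adjusted p = 0.11). Xbp1, whose spliced form turns on chaperone genes, had 0.28 ± 0.09 (edgeR adjusted p = 0.17), and the counts do not tell its spliced from its unspliced form. Of 31 genes of translocation, glycosylation and degradation none was called. Their median was 0.05, and 21 were positive, against 48.5% of all tested genes. Serpinh1 (Hsp47), a collagen chaperone of the same compartment outside these lists, stood at a CPM of 21.2, 22.3 and 21.2 in wild-type vehicle, 20.8, 18 and 15.7 in wild-type clozapine, 12.2, 11.5 and 12.4 in knockout vehicle, and 16.1, 14 and 17.5 in knockout clozapine. Here knockout vehicle lay below all other libraries. Its interaction was 0.65 ± 0.14 (edgeR adjusted p = 0.043), with a largest adjusted p of 0.11 without knockout clozapine 3 and a pass in 1 of 12 fits.

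**Figure D3:**
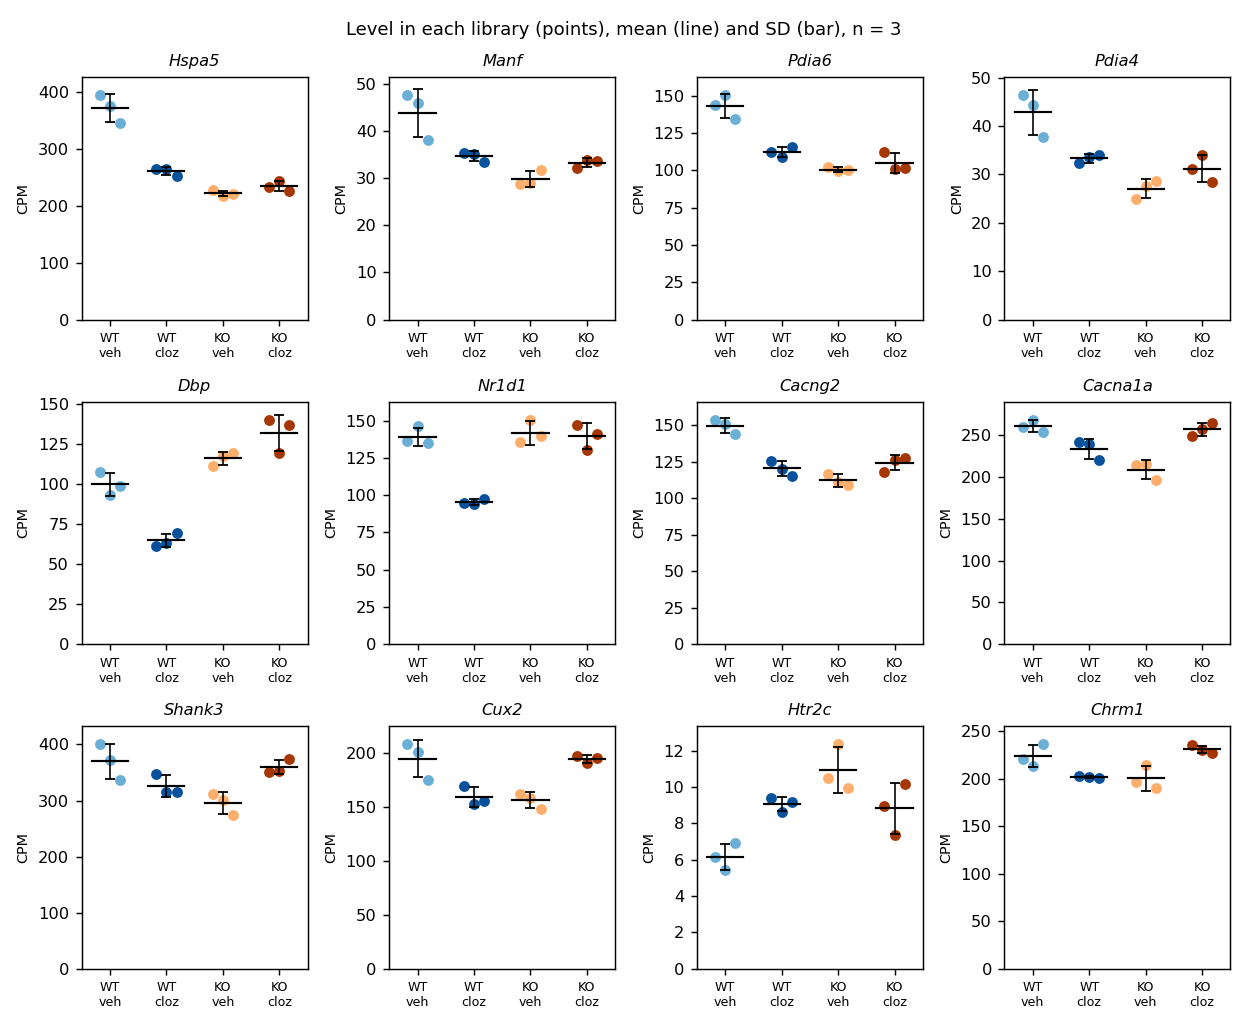
Each panel is a gene, with CPM on the y axis from 0, the 4 groups on the x axis, a point for each library and a bar at each group mean. Wild-type vehicle lies highest for the ER genes Hspa5, Manf, Pdia6 and Pdia4, wild-type clozapine lies lowest for Dbp and Nr1d1, and knockout vehicle and wild-type clozapine are both low for Cux2.

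Among clock genes, Dbp and Nr1d1 fell with clozapine in wild type (edgeR adjusted p = 0.00059 and 0.00036) and did not pass in the labelled knockout (0.26 and 0.93). Dbp (ENSMUSG00000059824.10, chromosome 7, 45705088 to 45710203) is a transcription factor whose level is set directly by CLOCK and BMAL1. It stood at a CPM of 107, 93.5 and 98.6 in wild-type vehicle, 61.5, 63.4 and 69.5 in wild-type clozapine, 112, 117 and 120 in knockout vehicle, and 140, 119 and 137 in knockout clozapine. Wild-type clozapine was below all other libraries, 35.1% under wild-type vehicle on average. Under clozapine the labelled knockout was 104% above wild type, and under vehicle 16.4% above. The interaction was 0.81 ± 0.10 (95% interval 0.60 to 1.01, edgeR adjusted p = 0.0019). It passed without each library, with a largest adjusted p of 0.010.

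Nr1d1 (REV-ERBα, ENSMUSG00000020889.11, chromosome 11, 98767932 to 98775333) is the nuclear receptor that represses Arntl in the clock. It stood at a CPM of 136, 146 and 135 in wild-type vehicle, 94.8, 93.8 and 97.5 in wild-type clozapine, 135, 151 and 139 in knockout vehicle, and 147, 130 and 141 in knockout clozapine. The 3 other groups overlapped, and wild-type clozapine lay below them all. Its interaction was 0.52 ± 0.08 (edgeR adjusted p = 0.010), and it passed without each library, with a largest adjusted p of 0.044. Arntl, which encodes BMAL1, had 38.6 ± 2.32, 42.2 ± 1.35, 30.9 ± 2.23 and 30.1 ± 1.85 CPM (SD, n = 3, groups in the same order), and its interaction was -0.17 (edgeR adjusted p = 0.48). Other outputs of the clock were positive without passing: Ciart 0.62 (edgeR adjusted p = 0.19), Usp2 0.30 (0.086), Tef 0.25 (0.11) and Per3 0.25 (0.26). Per2 ranged from 24.4 to 58.3 CPM, and libraries of 1 group spread so widely that its value of 0.50 had an interval from -0.49 to 1.5. Of the 2 clock lists, 1 of 12 activators and repressors was called and 9 were positive. Their median was 0.16 (0.10 without wild-type clozapine 2 or knockout vehicle 2). Of 11 output genes 1 was called and 9 were positive, with a median of 0.25. The shares over all tested genes were 0.654% called and 48.5% positive.

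Of the genes of voltage-gated channels and of the postsynaptic density, 4 were called, all positive: Cacna1a, Cacng2, Shank3 and Shank2. Cacna1a (ENSMUSG00000034656.16, chromosome 8, 84388440 to 84640246) encodes the pore of the P/Q-type calcium channel that triggers transmitter release. It stood at a CPM of 260, 268 and 254 in wild-type vehicle, 241, 240 and 220 in wild-type clozapine, 214, 216 and 196 in knockout vehicle, and 249, 257 and 264 in knockout clozapine. Within each genotype the treatments did not overlap, and they moved in opposite directions. Its interaction was 0.46 ± 0.08 (edgeR adjusted p = 0.015), lost without wild-type vehicle 3 and without knockout clozapine 5 (largest adjusted p 0.055). Cacng2 (stargazin, ENSMUSG00000019146.2, chromosome 15, 77991748 to 78120028), which carries AMPA receptors to the synapse, stood at 154, 151 and 144 CPM, then 126, 120 and 115, then 117, 111 and 109, and finally 118, 126 and 128 CPM. Its interaction was 0.46 ± 0.07 (edgeR adjusted p = 0.014), lost only without knockout clozapine 5 (edgeR adjusted p = 0.055). Of 18 calcium channel genes 2 were called and 17 were positive, against 0.654% called and 48.5% positive over all tested genes. Their median was 0.20, or 0.143 after the length and GC correction.

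Potassium channel genes were mainly positive, without a call: 0 of 32 passed edgeR's adjusted threshold, 10 had an unadjusted p under 0.05, and 26 were positive. Of all 17286 tested genes 2345 had an unadjusted p under 0.05, and 48.5% were positive. The median of the potassium channel genes was 0.20, or 0.145 after the length and GC correction. Kcnf1, a silent subunit that modifies Kv2 channels, had 0.56 ± 0.12 (edgeR adjusted p = 0.065). It passed with DESeq2 (adjusted p = 0.0018), with no low-count filter (edgeR 0.049) and with 1 surrogate variable (edgeR 0.0041). In the other alternatives that kept all libraries it did not pass, among them limma-voom (0.063) and the length and GC correction (edgeR 0.088). Kcnf1 lies on chromosome 12 (17172100 to 17176888), in a stretch described further on. Kcnq3, a subunit of the M current that limits repetitive firing, had 0.43 ± 0.11 (edgeR adjusted p = 0.091, DESeq2 0.013). Of 9 sodium channel genes 6 were positive, with a median of 0.11 (0.03 without knockout vehicle 5) and no call, and of 17 ionotropic glutamate receptor genes 12 were positive, with a median of 0.03 and no call.

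The SHANK proteins are the large scaffolds at the core of the postsynaptic density, and the means of all 3 genes were lower in knockout vehicle than in knockout clozapine. Shank3 (ENSMUSG00000022623.15, chromosome 15, 89499623 to 89560261) stood at a CPM of 400, 372 and 337 in wild-type vehicle, 348, 314 and 315 in wild-type clozapine, 312, 301 and 273 in knockout vehicle, and 351, 353 and 374 in knockout clozapine. The wild-type groups overlapped, and the labelled knockout groups did not. Its interaction was 0.47 ± 0.09 (edgeR adjusted p = 0.039), with a pass in 4 of 12 fits without 1 library and an adjusted p of 0.17 after the length and GC correction. Shank2 (ENSMUSG00000037541.19, chromosome 7, 144001928 to 144424494) stood at 271, 284 and 255, then 230, 231 and 215, then 192, 195 and 152, and finally 210, 217 and 208 CPM. Its interaction was 0.50 ± 0.11 (edgeR adjusted p = 0.048), and it was 0.051 with RLE size factors, 0.064 after the length and GC correction and up to 0.13 without wild-type clozapine 5. Shank1 had 0.42 ± 0.10 (edgeR adjusted p = 0.068), with knockout vehicle 5 at 479 CPM apart from 598 and 607 in the other 2 libraries of its group. Of 21 scaffold and adhesion genes 2 were called, 20 were positive and the median was 0.26, or 0.14 after the length and GC correction. Over all tested genes 0.654% were called and 48.5% positive. Dlg4, which encodes PSD-95, had 0.26 (edgeR adjusted p = 0.13), and Nlgn3 alone was negative (-0.18, edgeR adjusted p = 0.49).

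Markers of excitatory neurons and of interneurons both had mean sums in the same direction as these lists. The summed level of 10 excitatory markers, among them Camk2a and Slc17a7, was 10200 to 11100 CPM in wild-type vehicle and 9730 to 9950 in wild-type clozapine. It was 9610 to 10500 in knockout vehicle and 10900 to 11200 in knockout clozapine. Of these 10 markers 6 were positive, against 48.5% of all tested genes. The median of their log2 interactions was 0.10 and none was called. Interneuron markers had sums of 1530 to 1660, 1490 to 1510, 1530 to 1640 and 1600 to 1650 CPM. Of 13 interneuron markers 9 were positive, with a median of 0.11 and no call, so the direction was not particular to excitatory markers. The part of these markers in the channel and scaffold results was not tested, and in bulk tissue fewer cells of a type and less RNA per cell cannot be told apart.

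Further called genes of synapse and membrane had the same pattern and were picked for description after their values were seen. Hpca (hippocalcin), a calcium sensor of neurons, stood at a CPM of 731, 729 and 731 in wild-type vehicle, 648, 641 and 667 in wild-type clozapine, 648, 659 and 625 in knockout vehicle, and 746, 704 and 754 in knockout clozapine. The 2 low groups lay together, as did the 2 high ones, and the interaction was 0.36 ± 0.06 (edgeR adjusted p = 0.026, 8 of 12 fits without 1 library). Rtn4rl1, a receptor of the Nogo family that limits axon growth, stood at 128, 128 and 124, then 108, 105 and 109, then 95.1, 93.3 and 94.1, and finally 112, 111 and 105 CPM. Its interaction of 0.45 ± 0.06 (edgeR adjusted p = 0.0055) passed without each library, as did that of Pitpnm2 (0.50 ± 0.08, edgeR adjusted p = 0.010), a lipid transfer protein. Rims3, of the presynaptic active zone, had an interaction of 0.50 ± 0.10 (edgeR adjusted p = 0.036). Sipa1l1, a regulator of dendritic spines, had 0.49 ± 0.09 (edgeR adjusted p = 0.031), Dagla, which makes the endocannabinoid 2-arachidonoylglycerol, 0.51 ± 0.10 (0.034), and Cx3cl1, the neuronal ligand of the microglial fractalkine receptor, 0.50 ± 0.09 (0.029). Rims3 and Dagla passed in 4 of 12, Sipa1l1 in 6 and Cx3cl1 in 7.

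Receptors that bind clozapine were tested as a list of 25, of which 22 had enough counts. Called were 2 higher and 1 lower, against 0.526% and 0.127% of all tested genes, and 17 were positive, against 48.5%. The median was 0.20, and 0.12 without wild-type vehicle 4. Chrm1 (ENSMUSG00000032773.9, chromosome 19, 8663789 to 8683587), the main muscarinic receptor of cortex, stood at a CPM of 220, 213 and 236 in wild-type vehicle, 203, 202 and 200 in wild-type clozapine, 196, 215 and 190 in knockout vehicle, and 235, 230 and 227 in knockout clozapine. Treatments did not overlap within either genotype, and the interaction was 0.35 ± 0.08 (edgeR adjusted p = 0.042). Adra2c (ENSMUSG00000045318.6, chromosome 5, 35278319 to 35281763), an adrenergic autoreceptor, stood at 32.2, 29.6 and 28.7, then 24.4, 25 and 24.0, then 20.1, 21.8 and 22.4, and finally 24.2, 23.4 and 23.2 CPM, with 0.44 ± 0.09 (edgeR adjusted p = 0.039). Htr2c (ENSMUSG00000041380.13, chromosome X, 146962513 to 147197277), a serotonin receptor that clozapine blocks, ran the other way. It stood at a CPM of 6.14, 5.46 and 6.90 in wild-type vehicle, 9.41, 8.65 and 9.15 in wild-type clozapine, 10.5, 12.4 and 9.97 in knockout vehicle, and 8.98, 7.36 and 10.2 in knockout clozapine. Wild-type vehicle was below all other libraries, and the interaction of Htr2c was -0.86 ± 0.18 (edgeR adjusted p = 0.039). After the length and GC correction the edgeR adjusted p was 0.065 for Chrm1, 0.11 for Adra2c and 0.049 for Htr2c. Leaving out single libraries ended these 3 calls in most fits: Chrm1 and Htr2c passed in 1 of 12 fits without 1 library and Adra2c in 2, with adjusted p up to 0.12 for Chrm1 (without knockout clozapine 3), 0.10 for Htr2c (without wild-type vehicle 3) and 0.11 for Adra2c (without wild-type clozapine 5). Htr2a, the serotonin receptor most often linked to clozapine, had 0.22 (edgeR adjusted p = 0.81), and Drd2 1.2 (0.54).

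Genes of cholesterol synthesis were mainly negative and had no call. Of 25 genes of the pathway and its SREBP regulators, 21 were negative, with a median log2 interaction of -0.22. An unadjusted p under 0.05 was found for 13, all negative. Over all 17286 tested genes 2345 had such a p, and 48.5% had a positive interaction. Hmgcs1, an early enzyme of the pathway, stood at a CPM of 218, 194 and 217 in wild-type vehicle, 217, 250 and 254 in wild-type clozapine, 263, 245 and 263 in knockout vehicle, and 231, 235 and 222 in knockout clozapine. Its interaction was -0.36 ± 0.09 (edgeR adjusted p = 0.081, DESeq2 0.012). Hmgcs1 lies on chromosome 13 (119690379 to 119708260), close to the called genes Ccl28 and Tmem267, which are described further on. Msmo1, a sterol methyl oxidase, had -0.36 ± 0.09 (edgeR adjusted p = 0.092), and Insig1 had -0.38 (0.10). The summed level was 1350 to 1420 CPM in wild-type vehicle, below the 1480 to 1630 of the other 3 groups. Markers of oligodendrocytes, which make much of the brain's cholesterol, were also negative in 11 of 11, with a median of -0.23 (-0.10 without knockout clozapine 3) and no call. Their sums were 1760 to 2090, 1860 to 2320, 1740 to 1960 and 1450 to 2010 CPM in the order of groups above, and their part in the cholesterol values was not tested.

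Histone deacetylases and their complexes showed no called interaction. Of 11 deacetylase genes 6 were positive with a median of 0.00. Hdac4 had 0.32 ± 0.09 (edgeR adjusted p = 0.12, DESeq2 0.041) and Hdac5 0.25 (edgeR adjusted p = 0.18), both class IIa enzymes that move between nucleus and cytoplasm. Of 23 subunits of HDAC1/2 complexes 19 were positive, with a median of 0.06, and 0 had an unadjusted p under 0.05. Over all 17286 tested genes 48.5% were positive, and 2345 had an unadjusted p under 0.05. The NF-kB pathway had 7 of 13 positive with a median of 0.02 and 0 with an unadjusted p under 0.05, and Nfkb1 itself had -0.06 (edgeR adjusted p = 0.88). Metabotropic glutamate receptors had 4 of 7 positive and a median of 0.05. For Grm2, a receptor studied in connection with HDAC2 and antipsychotics, the interaction was 0.08 with an interval from -0.21 to 0.37 (edgeR adjusted p = 0.86). Activity-induced genes had 17 of 23 positive and a median of 0.16, which was 0.02 without knockout clozapine 3 and 0.29 without knockout clozapine 5. Vgf, a secreted neuropeptide precursor, had 0.40 (edgeR adjusted p = 0.14) and Egr3 0.89 (0.19). GABA receptor genes had a median of 0.05, cytosolic heat shock genes -0.01 and glucocorticoid-responsive genes 0.02, with no call among 14, 16 and 16. All 13 mitochondrially encoded proteins were negative with a median of -0.25, which was 0.01 after the length and GC correction and between -0.41 (without wild-type vehicle 1) and -0.13 (without knockout clozapine 3) in the fits without 1 library.

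**Figure D4:**
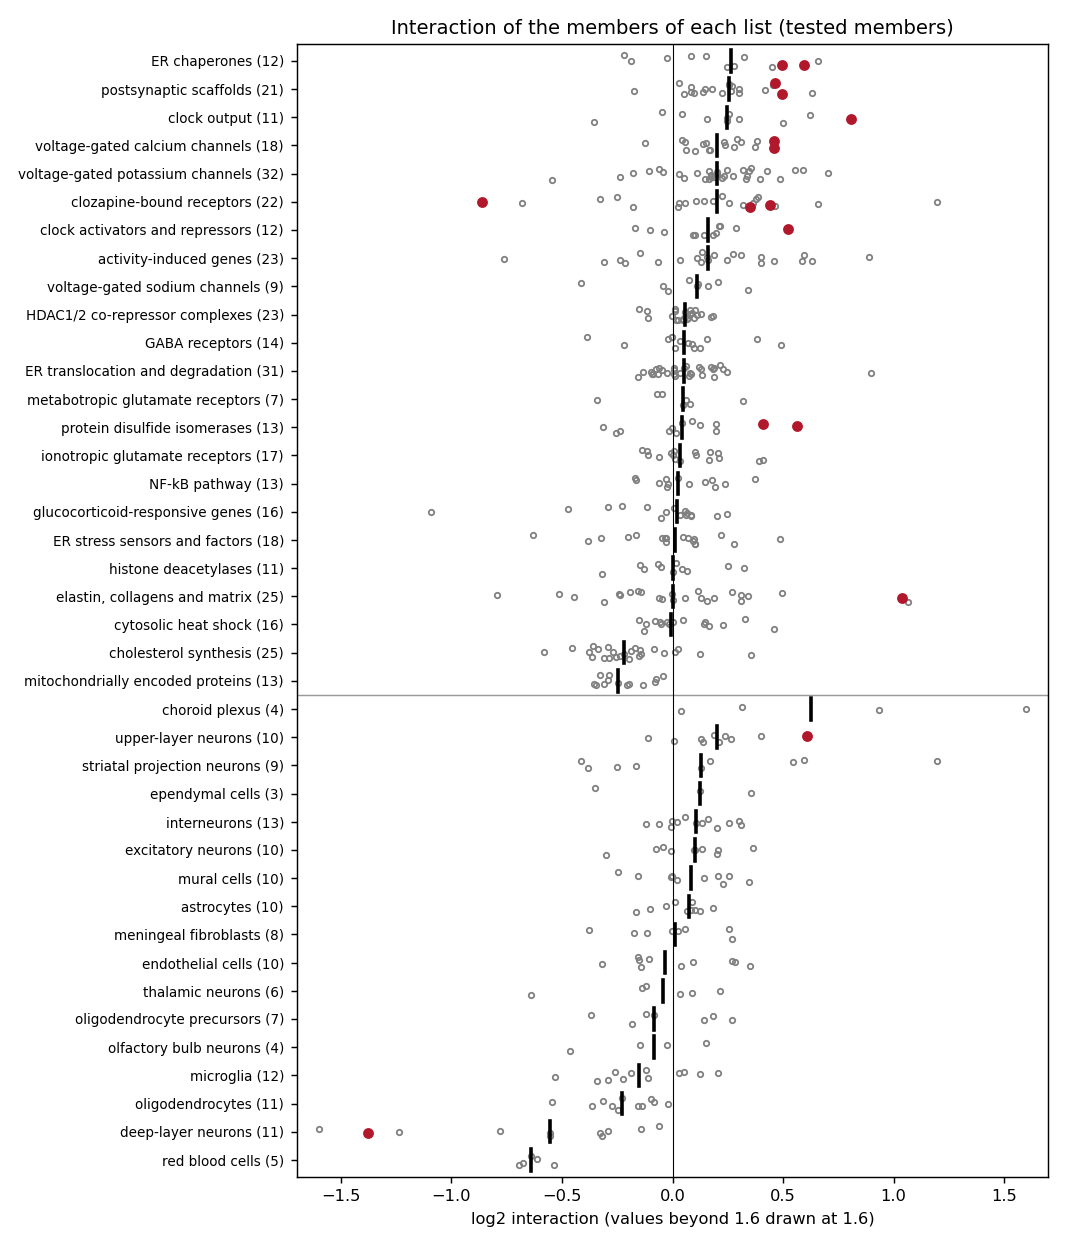
Each row is a gene list with its number of tested members, each circle is a member placed by its log2 interaction, filled red circles are called genes, and the bar is the median of the list, with pathways above the grey line and cell markers below. ER chaperones (0.26) and postsynaptic scaffolds (0.26) have the highest pathway medians, and mitochondrially encoded proteins (-0.25) and cholesterol synthesis (-0.22) the lowest. Members beyond the axis are drawn at its end.

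Markers of cortical layers lay on opposite sides of 0. Cux2 (ENSMUSG00000042589.18, chromosome 5, 121856366 to 122050102), a homeobox factor that shapes dendrites of upper-layer neurons, stood at a CPM of 208, 201 and 175 in wild-type vehicle, 169, 152 and 155 in wild-type clozapine, 162, 158 and 147 in knockout vehicle, and 197, 190 and 195 in knockout clozapine. With clozapine its mean fell by 18.4% in wild type (edgeR adjusted p = 0.042) and was 24.5% higher in the labelled knockout (0.073), and the treatments did not overlap in either genotype. The interaction was 0.61 ± 0.09 (edgeR adjusted p = 0.0080), and it passed without each library (largest adjusted p 0.041). Of 10 upper-layer markers 9 were positive and 1 was called, Cux2, against 48.5% and 0.654% of all tested genes. Their median interaction was 0.20. Their summed level, Cux2 included, was 1770 to 2030 CPM in wild-type vehicle and 1870 to 1970 in wild-type clozapine. It was 1760 to 1880 in knockout vehicle and 1950 to 2070 in knockout clozapine. Their median log2 change with clozapine was 0.02 in wild type, where Cux2 fell, and 0.20 in the labelled knockout.

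Rprm (reprimo, ENSMUSG00000075334.2, chromosome 2, 54084093 to 54085552), a marker of deep-layer neurons known as an inhibitor of the cell cycle, stood at a CPM of 16.2, 22.7 and 27.9 in wild-type vehicle, 45.9, 42.0 and 35.2 in wild-type clozapine, 38.2, 38.4 and 38.4 in knockout vehicle, and 22.7, 28.5 and 30.4 in knockout clozapine. Its interaction was -1.38 ± 0.25 (edgeR adjusted p = 0.042), with a pass in 2 of 12 fits and an adjusted p of up to 0.11 without knockout clozapine 4. It also ended at 0.069 after the length and GC correction and at 0.067 with no low-count filter. All 11 deep-layer markers were negative with a median of -0.55 (-0.32 without wild-type vehicle 1), among them Foxp2 (-1.24, edgeR adjusted p = 0.31), Fezf2 (-0.29, 0.85) and Bcl11b (-0.14, 0.90). Their summed level was 208 to 324 CPM in wild-type vehicle, 277 to 375 in wild-type clozapine, 295 to 378 in knockout vehicle and 268 to 295 in knockout clozapine. The groups overlapped. The sums include Rprm itself, so that they moved with its sign is partly built in. The part of the other markers in its interaction was not tested. Of the 11 markers Rprm alone was called, against 0.654% of all tested genes, of which 48.5% were positive.

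Other cell markers gave no call. Astrocyte markers had a median of 0.07, microglia -0.15, endothelial cells -0.03, mural cells 0.08, meningeal fibroblasts 0.01 and oligodendrocyte precursors -0.08. Haemoglobin and other red blood cell genes were negative in 5 of 5, with a median of -0.64 (-0.22 without wild-type clozapine 3 and -0.98 without knockout clozapine 4) and sums of 138 to 180 CPM in wild-type vehicle, 212 to 437 in wild-type clozapine, 139 to 205 in knockout vehicle and 122 to 303 in knockout clozapine. The 4 tested choroid plexus genes were positive with a median of 0.62 (0.19 without wild-type vehicle 3), which goes with the Ttr level of wild-type vehicle 3, where the list's sum was 60.1 CPM against a lowest sum of 4.35 in the same group. Markers of striatal projection neurons had 0.13, ependymal cells 0.13, thalamic neurons -0.04 and olfactory bulb neurons -0.09.

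Several single genes that the naming rule picked for the size of a positive interaction are described next. Eln (elastin, ENSMUSG00000029675.12, chromosome 5, 134702593 to 134747323), the extensible protein of elastic fibres, stood at a CPM of 12.7, 14 and 12.4 in wild-type vehicle, 10.3, 7.39 and 8.61 in wild-type clozapine, 8.61, 8.92 and 8.38 in knockout vehicle, and 12.3, 12.1 and 11.4 in knockout clozapine. Its mean fell by 32.6% in wild type (edgeR adjusted p = 0.017) and was 38.4% higher in the labelled knockout (0.088), and the treatments did not overlap in either. The interaction was 1.04 ± 0.15 (95% interval 0.72 to 1.35, edgeR adjusted p = 0.0068), and it passed without each library. Other matrix genes did not follow: of 25 elastin, collagen and matrix genes 13 were positive with a median of 0.00, and Col12a1 had -0.51 (edgeR adjusted p = 0.17).

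Called genes included an Eph receptor and an ephrin, each picked by the naming rule. They are not taken as a receptor and its own ligand, and the rest of these families was not counted. Epha8 (ENSMUSG00000028661.8, chromosome 4, 136929419 to 136956816), a receptor, stood at a CPM of 9.45, 12.5 and 9.48 in wild-type vehicle, 5.34, 6.75 and 7.52 in wild-type clozapine, 11.7, 13.1 and 12.2 in knockout vehicle, and 14.3, 14 and 14.8 in knockout clozapine, with 0.90 ± 0.17 (edgeR adjusted p = 0.034). Efnb3, an ephrin ligand, stood at 32.4, 40.1 and 38.6, then 44.9, 46.4 and 41.8, then 55.7, 52.0 and 47.9, and finally 42.6, 38.8 and 42.3 CPM, with -0.59 ± 0.11 (edgeR adjusted p = 0.029). Epha8 was thus lowest in wild-type clozapine and Efnb3 highest in knockout vehicle. Epha8 passed in 6 and Efnb3 in 7 of 12 fits without 1 library, with largest adjusted p of 0.081 without wild-type vehicle 3 and 0.082 without knockout clozapine 4.

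Smad3, which carries TGFβ signals to the nucleus, stood at a CPM of 112, 113 and 92.9 in wild-type vehicle, 64.8, 78.3 and 74.7 in wild-type clozapine, 78.0, 84.3 and 80.2 in knockout vehicle, and 86.4, 84.3 and 81.0 in knockout clozapine. Its interaction was 0.60 ± 0.11 (edgeR adjusted p = 0.026, 4 of 12 fits). Wnt4, a secreted Wnt ligand, stood at 37.2, 36.6 and 35.4, then 27.9, 23.3 and 27.7, then 31.8, 34.8 and 38.1, and finally 38.2, 38 and 39.7 CPM, with 0.61 ± 0.11 (edgeR adjusted p = 0.022, 9 of 12 fits). Wild-type clozapine lay below all other libraries for Wnt4, and for Smad3 it overlapped knockout vehicle at 78.3 against 78.0 CPM. Mapk6, an atypical MAP kinase, had 0.58 ± 0.10 (edgeR adjusted p = 0.015, 10 of 12 fits) with 119 ± 8.91, 91.5 ± 7.95, 73.6 ± 3.94 and 84.4 ± 3.05 CPM (SD, n = 3), and its relative Mapk4 had 0.53 ± 0.10 (edgeR adjusted p = 0.036, 3 of 12 fits). Prkg2, a cGMP-dependent kinase, had 0.96 ± 0.20 (edgeR adjusted p = 0.039), and wild-type vehicle 1, at 23.9 CPM, stood above 16 and 16.2 in its group. Prkg2 passed in 3 of 12 fits and not with limma-voom (adjusted p = 0.054). Rasd2 (Rhes), a small GTPase known from striatum, had 0.57 ± 0.10 (edgeR adjusted p = 0.024, 5 of 12 fits). The adaptors Sh2b2 (0.80, edgeR adjusted p = 0.018) and Shc3 (0.66, 0.039), which couple receptor kinases to Ras, passed in 8 and 3 fits. Smad3 (edgeR adjusted p = 0.052), Mapk4 (0.064) and Shc3 (0.073) did not pass after the length and GC correction.

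The remaining positive genes of the naming rule passed in 2 to 8 of the 12 fits. Zbtb40, a zinc finger factor, had 0.77 ± 0.15 (edgeR adjusted p = 0.034), Fibcd1, a chitin-binding membrane protein, 0.77 ± 0.14 (0.024), Fstl4, a follistatin-like secreted protein, 0.71 ± 0.15 (0.047), and Ankrd6 (Diversin), of the Wnt pathway, 0.66 ± 0.12 (0.023). Zbtb40 (chromosome 4, 136979732 to 137048801) lies between Epha8 and Wnt4 (137277489 to 137299726), both described above. Chromosome 4 had 7 calls among 1105 tested genes (0.633%). Whether the values of these neighbours are linked was not tested. Pcdhac2, a clustered protocadherin that gives neurons surface identity, had 0.66 ± 0.14 (edgeR adjusted p = 0.045), and exons shared within the cluster make its counts uncertain. Tmem108 had 0.56 ± 0.11 (edgeR adjusted p = 0.038), and Hecw1, a ubiquitin ligase, 0.53 ± 0.11 (0.039). Tmem108 (edgeR adjusted p = 0.054) and Zbtb40 (0.069) did not pass after the length and GC correction. In knockout clozapine Fibcd1 lay above every wild-type library, at 16.9, 15.2 and 15.4 CPM against 8.74 to 13.3 CPM.

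Negative genes were fewer and included low ones. Apod (ENSMUSG00000022548.14, chromosome 16, 31296192 to 31314808), a lipid-binding apolipoprotein that antipsychotics are known to raise, stood at a CPM of 78.6, 88.0 and 85.9 in wild-type vehicle, 127, 119 and 122 in wild-type clozapine, 101, 95.4 and 114 in knockout vehicle, and 113, 96.6 and 106 in knockout clozapine. It rose by 45.8% in wild type with no overlap, and in the labelled knockout the treatments overlapped. Its interaction was -0.52 ± 0.10 (edgeR adjusted p = 0.031, 5 of 12 fits, up to 0.082 without knockout clozapine 4). Gpx3, a secreted glutathione peroxidase, stood at 2.39, 3.08 and 2.90, then 3.66, 3.50 and 3.72, then 7.26, 6.01 and 7.62, and finally 4.70, 4.15 and 5.25 CPM, with -0.94 ± 0.20 (edgeR adjusted p = 0.039, 1 of 12 fits). Glrx2, a mitochondrial glutaredoxin, had -0.43 ± 0.08 (edgeR adjusted p = 0.026, 6 fits), and Gatm, which makes the precursor of creatine, -0.42 ± 0.09 (0.045, 1 fit). The RNA-binding Hnrnpdl had -0.42 ± 0.09 (edgeR adjusted p = 0.042), the splicing factor Zranb2 -0.41 ± 0.09 (0.043) and Ypel5 -0.36 ± 0.08 (0.042), with a pass in 2, 2 and 3 fits. Hnrnpdl (edgeR adjusted p = 0.061), Zranb2 (0.061), Ypel5 (0.11) and Gatm (0.12) did not pass after the length and GC correction.

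Ccl28 and Tmem267 are neighbours on chromosome 13 (119623819 to 119654359, and 119488039 to 119611059). Hmgcs1 of the cholesterol list, also lowest on average in wild-type vehicle but not called, lies close by (119690379 to 119708260). Whether their values are linked was not tested. Ccl28, a chemokine, stood at a CPM of 0.61, 0.81 and 0.75 in wild-type vehicle, 1.39, 2.87 and 2.67 in wild-type clozapine, 2.24, 2.28 and 2.39 in knockout vehicle, and 1.36, 2.24 and 1.53 in knockout clozapine, with -2.09 ± 0.37 (edgeR adjusted p = 0.024). Tmem267 stood at 3.53, 2.38 and 3.41, then 6.22, 11.2 and 8.73, then 7.47, 4.40 and 6.37, and finally 4.45, 5.5 and 5.01 CPM, with -1.78 ± 0.33 (edgeR adjusted p = 0.036). Ccl28 passed in 7 and Tmem267 in 3 of 12 fits without 1 library. Tmem267 did not pass with limma-voom (adjusted p = 0.054) or with no low-count filter (edgeR 0.065). Wild-type vehicle was below all other libraries for Ccl28 and for Tmem267. The Y-linked translation factor gene Eif2s3y, in mice that are all labelled male, had 18.9 ± 2.22, 30.4 ± 5.40, 31.2 ± 3.77 and 20.9 ± 3.67 CPM (SD, n = 3) and an interaction of -1.27 ± 0.23 (edgeR adjusted p = 0.039, 2 of 12 fits). Myh3, a myosin of embryonic muscle, was low throughout, at 1.48 to 4.18 CPM, with -1.26 ± 0.25 (edgeR adjusted p = 0.034, 3 fits).

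The largest negative values with a pass in every fit belonged to 2 genes for 7SL, the RNA of the signal recognition particle, named Rn7s1 and Rn7s2 and almost the same in sequence. Rn7s1 (ENSMUSG00000099021.1, chromosome 12, 69159295 to 69159594) stood at a CPM of 0.83, 0.85 and 0.95 in wild-type vehicle, 1.22, 2.28 and 1.63 in wild-type clozapine, 2.12, 2.61 and 2.87 in knockout vehicle, and 0.82, 0.72 and 0.58 in knockout clozapine. The treatments did not overlap within either genotype, and the interaction was -2.80 ± 0.34 for Rn7s1 and -2.79 for Rn7s2 (edgeR adjusted p = 0.0019). The copies share reads, and 7SL has no poly(A) tail, so their level in an mRNA library is uncertain.

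Called genes were gathered on a stretch of chromosome 12, noticed after the values were seen and therefore not tested. Between 16 and 31 Mb, 10 of 59 tested genes were called (16.9%), 8 higher and 2 lower, against 14 of 597 on the whole chromosome (2.35%) and 0.654% of all genes. The 10 include Pdia6, described above. Kcnf1 of the potassium channel list also lies in the stretch and was not called. Adi1 (ENSMUSG00000020629.12, 28675231 to 28682175), an enzyme of methionine salvage, stood at a CPM of 25, 21.9 and 21 in wild-type vehicle, 34.3, 46.1 and 42.3 in wild-type clozapine, 33.6, 28.5 and 23.1 in knockout vehicle, and 19.5, 21.7 and 20.2 in knockout clozapine. Acp1 (ENSMUSG00000044573.14, 30893326 to 30911589), a low molecular weight phosphatase, stood at 47.1, 45.0 and 45.9, then 31.8, 21.6 and 22.8, then 36.5, 35.0 and 47.8, and finally 45.3, 46.9 and 46.3 CPM. For Acp1 knockout vehicle 5 lay near the levels of wild-type vehicle and knockout clozapine and apart from the other libraries of its group, while for Adi1 the 3 knockout vehicle libraries were evenly spread and library 5 was the nearest to wild-type vehicle. The interaction was -1.32 ± 0.19 for Adi1 (edgeR adjusted p = 0.015, 8 of 12 fits) and 1.07 ± 0.20 for Acp1 (0.039, 3 of 12 fits).

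Odc1 (17544794 to 17551505), the rate-limiting enzyme of polyamine synthesis, showed the same split, at a CPM of 63.3, 65.6 and 61.6 in wild-type vehicle, 51.1, 49.6 and 54.0 in wild-type clozapine, 49.6, 45.7 and 60.6 in knockout vehicle, and 61.5, 62.8 and 59.7 in knockout clozapine (0.54 ± 0.11, edgeR adjusted p = 0.039). Odc1 passed in 2 of 12 fits without 1 library. The transcribed pseudogene 3110053B16Rik (ENSMUSG00000085642.7, 20874125 to 20921262), named after its values were seen, had the largest positive interaction of all called genes. It stood at 14.6, 15.6 and 16.6 CPM, then 6.81, 6.37 and 5.6, then 7.67, 8.30 and 13.1, and finally 16, 15.0 and 16.8 CPM, with 2.03 ± 0.22 (edgeR adjusted p = 0.0019, 12 of 12 fits). Asap2 (20990459 to 21270171), a regulator of Arf GTPases, did not show the split: knockout vehicle was at 46.5, 51.3 and 45.8 CPM, and its interaction of 0.61 ± 0.10 (edgeR adjusted p = 0.014) passed without each library. Hpcal1 (17690856 to 17791933), a neuronal calcium sensor, ranged over 22.4 to 32.1 CPM in wild type, against 63.4, 61.6 and 55.2 CPM in knockout vehicle, and with clozapine in the labelled knockout it was at 47.5, 43.6 and 44.5 CPM, with -0.60 ± 0.12 (edgeR adjusted p = 0.036). The genotypes did not overlap for Hpcal1 under either treatment, and its interaction passed in 4 of 12 fits without 1 library.

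**Figure D5:**
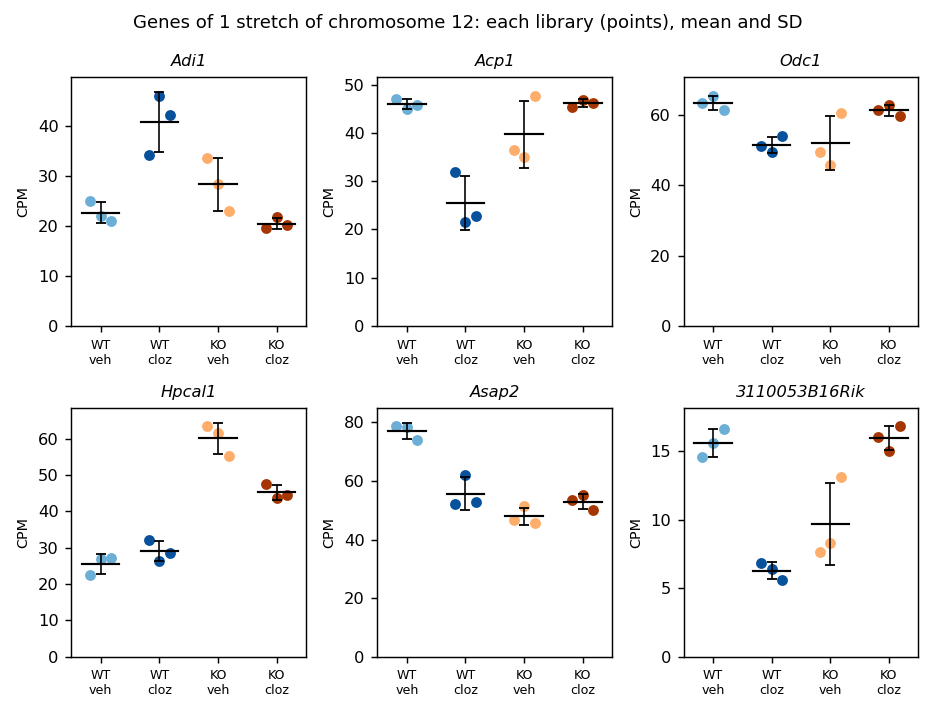
Panels show CPM (y axis, from 0) by group for 6 called genes between 16 and 31 Mb of chromosome 12, with a point per library and a bar at each mean. For Adi1, Acp1, Odc1 and 3110053B16Rik 1 of the 3 knockout vehicle points, knockout vehicle 5, lies near the wild-type vehicle level, while for Asap2 and Hpcal1 the 3 points lie together.

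The split of knockout vehicle 5 also appeared in 2 called pseudogenes on other chromosomes, singled out after their values were seen. Gm6472 (chromosome X) stood at a CPM of 17.3, 14.7 and 16 in wild-type vehicle, 27.2, 37.0 and 34.6 in wild-type clozapine, 28.2, 26.5 and 18.8 in knockout vehicle, and 16.7, 16.7 and 15.2 in knockout clozapine (-1.64 ± 0.21, edgeR adjusted p = 0.0080). Gm7993 (chromosome 5) stood at 0.740, 0.654 and 0.635, then 4.37, 3.42 and 4.01, then 4.45, 3.86 and 1.04, and finally 1.11, 0.68 and 0.54 CPM (-4.51 ± 0.68, edgeR adjusted p = 0.026). Copies of such genes elsewhere in the genome can share their reads. What sets knockout vehicle 5 apart in these genes was not tested.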

How the data were processed

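RNA of 12 frontal cortex libraries was made into Illumina mRNA libraries, per the labels' protocols. Reads were aligned to GRCm38 with STAR 2.5.1b and counted with featureCounts, per the submitters' processing notes. The deposited table holds estimated counts per gene, of which 7.39% are not whole numbers. How shared reads were divided and whether strand was used is not given in the sources used here, so values of overlapping, antisense or near-identical genes are uncertain.

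The counts were rounded and tested with edgeR 4.0.16 in R 4.3.3. The test used TMM scaling, filterByExpr (17286 of 47069 genes, 99.93% of counts) and a robust quasi-likelihood fit of 4 groups without covariates. BH adjustment ran over all tested genes with a threshold of 0.05. SE is the log2 value over the square root of F, and intervals are at 95%. Gene positions come from GENCODE M21 (GRCm38), which matched 46574 identifiers, and promoters from RefSeq (GRCm38.p6).

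Total counts were 23408372 to 28069638 per library, and each group holds 3 libraries. On simulated counts over 17286 genes with 200 known interactions, edgeR recovered 52% of 1.5-fold and 73% of 2-fold ones, and 9.42% of its calls were false, above the nominal 5%.

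The members and the 23 pathway and 17 cell marker lists were chosen with earlier results of these data known. Named were Hdac2, up to 25 called genes in each direction of largest log2 interaction at a mean of at least 1 CPM, and the called members of each pathway list, or else its 2 of smallest p. Predicted genes, clones and pseudogenes were left out of that rule. Other genes and list members are named after their values were seen. Not every gene that the rule names is described. Alternatives were DESeq2 1.42.0, limma-voom (limma 3.58.1), RLE size factors, no low-count filter, a mean of at least 1 CPM, a replicate block, 1 surrogate variable (sva 3.50.0), unrounded counts, a smooth length and GC correction of each library (17197 genes), and leaving out each library.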

Additional observations from a re-analysis of the deposited data

Results flagged for a closer look

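Clozapine effects that differed between the genotypes by the test of the difference itself were found for 113 genes (edgeR quasi-likelihood test, adjusted p under 0.05), and the following protein-coding or small RNA genes also passed without each of the 12 libraries in turn. The log2 interaction was 0.808 for Dbp, 0.592 for Hspa5, 0.449 for Rtn4rl1, 1.04 for Eln, 0.609 for Cux2, 0.523 for Nr1d1, 0.501 for Pitpnm2 and 0.61 for Asap2. It was -2.8 for Rn7s1 and -2.79 for Rn7s2, whose near-identical copies share reads.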

How the results depend on the processing

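The 113 calls (91 higher, 22 lower) became 359 (295 and 64) with DESeq2, 302 (237 and 65) with no low-count filter, 290 (227 and 63) with 1 surrogate variable and 69 (48 and 21) with the length and GC correction. They held 102, 109, 113 and 57 of the 113, where DESeq2 gave 11 no adjusted p. Limma-voom called 110, RLE size factors 113, a mean of at least 1 CPM 115 and unrounded counts 113. Leaving out 1 library gave 13 to 181 calls, 10 to 156 higher and 3 to 26 lower. None of the 113 changed sign under these alternatives or the replicate block. The replicate block gave 12 calls, 6 higher and 6 lower, 8 of them among the 113. With the block Dbp, Hspa5, Eln, Cux2, Rn7s1 and Rn7s2 passed, and Nr1d1 (edgeR adjusted p = 0.10) and Asap2 (0.11) did not. The labels do not say whether a replicate number shared between groups ties libraries. Over the 10 pairs with a shared number, deviations from the group means correlated at -0.08 to 0.12 (median -0.03). Over the 44 pairs without, the range was -0.21 to 0.15. These correlations run over all genes and cannot show whether single genes follow the number, which was not tested. Of the named genes' values under alternatives, 1293 kept their direction and side of the threshold, 413 were no longer past it, 24 came past it and 0 reversed. Of 840 list medians 75 moved by over 1 SD and 69 changed sign. The causes were not tested. Total counts and 3 libraries per group limit the precision, and their shares in it were not separated.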
